A study of Mus musculus with 4 samples.

Results

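The genes described here are 10 components of bone morphogenetic protein (BMP) signalling: the receptors Bmpr1a and Bmpr2, the Smads Smad1, Smad4, Smad5, Smad6 and Smad7, and the target genes Id1, Id2 and Id3. They are defined by name and role, with no threshold on a measured value, although earlier results of these data were known when they were chosen. They are 10 of the 18436 genes in the expression table. RNA was sequenced from intestinal crypt cells sorted for bright GFP fluorescence (Lgr5-GFPhigh) from 4 C57BL/6 mice, 2 for each genotype. Lgr5-CREPTWT mice carried Lgr5-EGFP-IRES-creERT2, which places GFP and a tamoxifen-inducible Cre under the stem cell gene Lgr5. Lgr5-CREPTKO mice carried the same allele with CREPT fl/fl, in which exon 3 of Rprd1b, the gene for the transcription regulator CREPT, is floxed. By the study's methods, mice of both genotypes were given daily tamoxifen (1 mg) on 5 days, cells were sorted on day 7, and the animals used in the study were 6 to 8 weeks old. Cre is made only in cells that express the Lgr5 allele, an allele known to be expressed in a mosaic of crypts. The question for these genes was whether their RNA differed between Lgr5-GFPhigh cells with and without CREPT.

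BMP ligands bind a complex of type I and type II receptor kinases. The type I receptor then phosphorylates the receptor Smads, which join the common partner Smad4, enter the nucleus and act on target genes, among which the Id genes are standard readouts. Smad6 and Smad7 are inhibitory Smads that limit the signal and are themselves induced by it. In the intestine, BMP activity is known to be low at the crypt base, where antagonists made by the surrounding mesenchyme protect stem cells, and to rise toward the villus.

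Values are FPKM, which scales fragments to transcript length and to the size of each library, and the read depth behind them is unknown. FPKM summed to between 468830 and 499327 per mouse. Rprd1b was 17.7 and 18.1 FPKM in the Lgr5-CREPTWT mice and 6.65 and 7.36 FPKM in the Lgr5-CREPTKO mice, with a log2 fold change of -1.29 ± 0.0946 (SE) and an adjusted p of 0.0280 by limma. A transcript that lacks only exon 3 can still be counted, and Rprd1b shares 370 exon bases with Tgm2 (91.7 to 103 FPKM) and 130 with 2010009K17Rik (0.62 to 3.02 FPKM), both on the opposite strand, with no use of strand in the counting stated. So this value does not measure how many cells lost the exon. Lgr5 itself was 47.7 and 37.7 FPKM in the Lgr5-CREPTWT mice and 52.0 and 60.1 FPKM in the Lgr5-CREPTKO mice. The 4 crypt stem markers listed were Lgr5, Olfm4, Ascl2 and Smoc2. All 4 had both Lgr5-CREPTKO mice above both Lgr5-CREPTWT mice, against 25.6% of all genes tested. Their median log2 fold change was 0.24, and 0 passed at an adjusted p below 0.05. Other genes of the study's stem cell signature went either way. Kcne3 was 273 and 216 FPKM in the Lgr5-CREPTWT mice and 162 and 194 FPKM in the Lgr5-CREPTKO mice. Slc12a2 was 425 and 380 FPKM in the Lgr5-CREPTWT mice and 574 and 517 FPKM in the Lgr5-CREPTKO mice. Of the 4 epithelial markers (Epcam, Cdh1, Krt8 and Vil1), 2 were lower and 2 higher in Lgr5-CREPTKO cells, and 0 passed. Vil1 was 171 and 182 FPKM in the Lgr5-CREPTWT mice and 87.1 and 119 FPKM in the Lgr5-CREPTKO mice. Its log2 fold change was -0.79 (adjusted p = 0.0689, limma). The 6 fibroblast markers summed to at most 0.540 FPKM in a mouse, and the 4 endothelial markers with a row to at most 0.290 FPKM. The 5 immune markers summed to 1.69 and 3.43 FPKM in the Lgr5-CREPTWT mice and 0.440 and 4.51 FPKM in the Lgr5-CREPTKO mice. Of these 5, 3 were tested and 0 passed. In sorted bulk RNA, fewer cells of a type and less RNA per cell cannot be told apart.

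None of the 10 genes differed between the genotypes at an adjusted p below 0.05, the threshold used throughout. All 10 were tested, since each averaged 0.5 FPKM or more across the mice. Of the 12621 genes tested by limma, 389 (3.08%) passed, of which 337 (2.67% of all genes) were lower and 52 (0.412%) higher in Lgr5-CREPTKO cells. At an unadjusted p below 0.05, 0 of the 10 genes and 24.5% of all genes passed. Both Lgr5-CREPTKO mice lay above both Lgr5-CREPTWT mice for 2 of the 10 genes, Smad4 and Smad5, against 25.6% of all genes. No member had both Lgr5-CREPTKO mice below, against 31.0% of all genes. The log2 fold changes of the 10 genes had a median of 0.05 and ran from -0.10 to 0.20, and the median over all genes tested was -0.01. The median size of the difference, without its sign, was 0.08 for the 10 genes and 0.17 for all genes tested. With 2 mice in each genotype, exact permutation of the labels could not reach 0.05, so the tests rest on the spread that limma shares across genes.

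The levels of the 10 genes differed widely, from a mean over the 4 mice of 2.81 FPKM for Smad6 to 109 FPKM for Id1. In descending order of mean FPKM they were Id1, Id3, Smad4, Bmpr1a, Smad1, Id2, Smad5, Bmpr2, Smad7 and Smad6. Id1 lay at the 94.9th percentile of the genes tested and Smad6 at the 19.7th. The ranges over the 4 mice overlapped between the neighbours Id3 and Smad4, Bmpr1a and Smad1, and Smad1 and Id2. The order of Id3 and Smad4, and of Bmpr1a and Smad1, varied between mice and was not resolved. Smad1 exceeded Id2 in each mouse, but narrowly in Lgr5-CREPTWT mouse 1 (23.6 and 23.2 FPKM) and Lgr5-CREPTKO mouse 2 (22.2 and 21.5 FPKM). The ranges of the other neighbours did not overlap. Of the 50-base stretches in a member's transcripts, at most 0.679% (Smad5) also occurred in another gene.

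**Figure D1:**
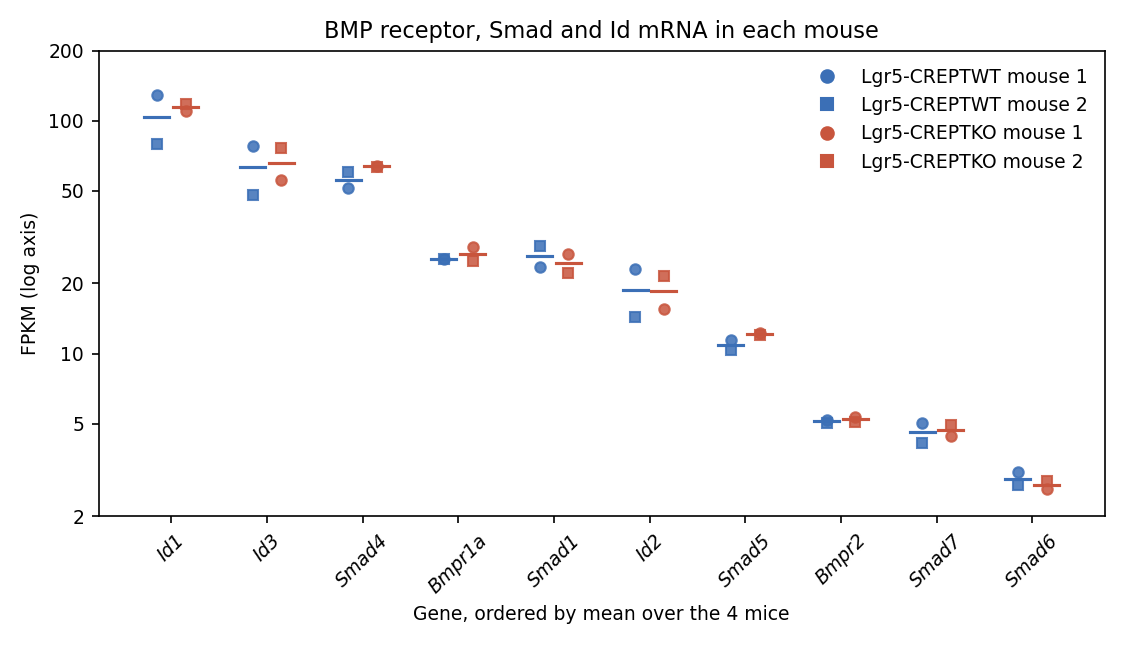
Level of each of the 10 genes in each mouse, in FPKM on a log axis, ordered by mean; colour marks genotype, shape the mouse number, and bars the mean of 2 mice. Points of the genotypes are intermixed for most genes, and the 3 Id genes show the widest spread within the Lgr5-CREPTWT mice.

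Bmpr1a encodes a type I receptor and Bmpr2 a type II receptor, so together they form a BMP-binding complex. Bmpr1a, at 14:34411061-34503336 on the minus strand of GRCm38.p6, with 13 exons in its longest coding transcript, was 25.5 and 25.4 FPKM in the Lgr5-CREPTWT mice and 28.6 and 24.9 FPKM in the Lgr5-CREPTKO mice. The Lgr5-CREPTKO mice lay on either side of the Lgr5-CREPTWT pair. The fold was 1.05 with a 95% interval of 0.887 to 1.24 (adjusted p = 0.700, limma). Bmpr2, at 1:59764279-59878081 on the plus strand, was the steadiest of the 10 genes, with 5.19 and 5.04 FPKM in the Lgr5-CREPTWT mice and 5.36 and 5.09 FPKM in the Lgr5-CREPTKO mice. Its highest mouse was 1.06 times its lowest, and the genotypes overlapped. Its fold was 1.02 with an interval of 0.840 to 1.24 (adjusted p = 0.904, limma). Bmpr1a exceeded Bmpr2 in every mouse, at ratios of 4.91 and 5.04 in the Lgr5-CREPTWT mice and 5.34 and 4.90 in the Lgr5-CREPTKO mice. An antisense gene, Gm17110, shares 290 exon bases with Bmpr1a, and no use of strand in the counting is stated.

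Smad1 and Smad5 are receptor Smads of the BMP branch. Smad1, at 8:79338395-79399428 on the minus strand, was 23.6 and 28.9 FPKM in the Lgr5-CREPTWT mice and 26.7 and 22.2 FPKM in the Lgr5-CREPTKO mice. Each genotype had a higher and a lower mouse and the pairs overlapped. Its fold was 0.934 with an interval of 0.726 to 1.20 (adjusted p = 0.715, limma). Smad5, at 13:56703010-56742378 on the plus strand, was 11.4 and 10.3 FPKM in the Lgr5-CREPTWT mice and 12.3 and 12.0 FPKM in the Lgr5-CREPTKO mice. Its genotypes did not overlap. The fold of 1.11 had an interval of 0.937 to 1.31 and did not pass (adjusted p = 0.392, limma).

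Smad1 RNA exceeded Smad5 RNA in each mouse, from 1.86 times in Lgr5-CREPTKO mouse 2 to 2.79 times in Lgr5-CREPTWT mouse 2. Their sum was 35.1 and 39.2 FPKM in the Lgr5-CREPTWT mice and 39.0 and 34.2 FPKM in the Lgr5-CREPTKO mice. This sum exceeded that of Smad2 and Smad3, the receptor Smads of the TGF-beta and activin branch, in every mouse. The ratio of the sums was 1.74 and 1.92 in the Lgr5-CREPTWT mice and 1.67 and 1.49 in the Lgr5-CREPTKO mice.

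Smad4 is the common Smad, shared by the BMP and TGF-beta branches, and had the smallest p of the 10 genes. It lies at 18:73634790-73703791 on the minus strand and was 51.2 and 60.1 FPKM in the Lgr5-CREPTWT mice and 64.1 and 63.3 FPKM in the Lgr5-CREPTKO mice. The genotypes did not overlap, and the Lgr5-CREPTWT mice lay much farther apart than the Lgr5-CREPTKO mice. The means were 55.7 ± 6.33 (SD, n = 2) and 63.7 ± 0.601 FPKM (SD, n = 2). The log2 fold change was 0.20 ± 0.0975 (SE), a fold of 1.15 with an interval of 0.964 to 1.36. It did not pass, with an unadjusted p of 0.0989 that ranked 4325th among the genes tested and an adjusted p of 0.289 by limma. Smad4 exceeded the sum of Smad1 and Smad5 in every mouse, at ratios of 1.46 and 1.53 in the Lgr5-CREPTWT mice and 1.64 and 1.85 in the Lgr5-CREPTKO mice.

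Smad6 and Smad7, the inhibitory Smads, were the lowest of the 10 genes. Smad6, at 9:63953076-64022085 on the minus strand, was 3.09 and 2.72 FPKM in the Lgr5-CREPTWT mice and 2.61 and 2.82 FPKM in the Lgr5-CREPTKO mice. The genotypes overlapped, and the fold was 0.945 with an interval of 0.730 to 1.22 (adjusted p = 0.779, limma). Smad7, which limits the TGF-beta branch as well, lies at 18:75367365-75395935 on the plus strand. It was 5.02 and 4.13 FPKM in the Lgr5-CREPTWT mice and 4.43 and 4.94 FPKM in the Lgr5-CREPTKO mice, so the Lgr5-CREPTKO mice lay inside the Lgr5-CREPTWT pair. Its fold was 1.02 with an interval of 0.793 to 1.32 (adjusted p = 0.910, limma).

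The inhibitory Smads were also compared within each mouse. Smad7 exceeded Smad6 in each mouse by a factor between 1.52 and 1.75. The sum of Smad1 and Smad5 was between 4.33 and 5.72 times the sum of Smad6 and Smad7, and both of these extremes were Lgr5-CREPTWT mice.

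Id1, Id2 and Id3 encode small proteins that bind E proteins and keep them off DNA, and their promoters and enhancers are known targets of BMP Smads. The promoter windows of Id2 and Id3 are shown because these genes had the most alike profiles among the 10. They are RefSeq sequences on GRCm38.p6, from 250 bases before the gene start to 50 after, and capitals mark GGCGCC, a GC-rich element bound by Smads of the BMP branch, and GTCT, the Smad binding element, which reads AGAC on the opposite strand. Id2 (chr12:25096043-25096342, minus strand) holds GGCGCC at position 20 and AGAC at position 228, counted from 1 at the 5′ end of the window. Id3 (chr4:136143572-136143871, plus strand) holds no GGCGCC and has AGAC at position 85 and GTCT at positions 183 and 272.
Id2: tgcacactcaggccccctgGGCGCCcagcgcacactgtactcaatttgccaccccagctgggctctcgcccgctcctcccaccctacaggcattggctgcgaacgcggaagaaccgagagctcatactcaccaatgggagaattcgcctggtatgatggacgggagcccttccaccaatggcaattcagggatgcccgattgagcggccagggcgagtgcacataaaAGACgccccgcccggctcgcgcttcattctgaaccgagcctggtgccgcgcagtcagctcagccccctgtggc
Id3: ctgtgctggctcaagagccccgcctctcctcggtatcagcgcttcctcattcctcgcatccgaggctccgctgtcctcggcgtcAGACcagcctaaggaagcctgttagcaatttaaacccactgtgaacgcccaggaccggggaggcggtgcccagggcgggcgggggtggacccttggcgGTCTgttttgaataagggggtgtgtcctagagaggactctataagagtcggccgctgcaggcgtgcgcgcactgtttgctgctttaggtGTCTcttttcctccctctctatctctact
Across the 32851 promoters of the table, 11.9% held GGCGCC and 88.0% held GTCT on either strand, so GTCT hardly distinguishes a promoter of this length. The motifs share no bases with each other. Of the 10 genes, 7 had an entry, with 9 promoters among them. GGCGCC was also present in the windows of Bmpr1a, Bmpr2 and 2 of the 3 Smad5 promoters, and absent from those of Smad1 and Smad6. These 2 Smad5 windows, which start at 13:56702760 and 13:56702802, overlap, and their match is the same site. Smad4, Smad7 and Id1 were the members with no entry in the table.

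Id1, at 2:152736251-152737410 on the plus strand, was the highest of the 10 genes. It measured 129 and 79.3 FPKM in the Lgr5-CREPTWT mice and 111 and 118 FPKM in the Lgr5-CREPTKO mice. Both Lgr5-CREPTKO values fell between the Lgr5-CREPTWT values, and the fold was 1.13 with an interval of 0.745 to 1.70 (adjusted p = 0.697, limma). Id2, at 12:25093799-25096092 on the minus strand, measured 23.2 and 14.3 FPKM in the Lgr5-CREPTWT mice and 15.6 and 21.5 FPKM in the Lgr5-CREPTKO mice. Again the Lgr5-CREPTKO mice lay inside the Lgr5-CREPTWT pair. The means were 18.7 ± 6.28 (SD, n = 2) and 18.6 ± 4.20 FPKM (SD, n = 2), with a fold of 1.01 and an interval of 0.623 to 1.62 (adjusted p = 0.990, limma). Id3, at 4:136143822-136145392 on the plus strand, measured 78.2 and 48.1 FPKM in the Lgr5-CREPTWT mice and 55.7 and 76.4 FPKM in the Lgr5-CREPTKO mice. Its Lgr5-CREPTKO mice also lay inside the Lgr5-CREPTWT pair, and its fold was 1.06 with an interval of 0.656 to 1.72 (adjusted p = 0.876, limma).

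The widest differences among the 10 genes were between mice of the same genotype, and they were in the Id genes. Lgr5-CREPTWT mouse 1 exceeded Lgr5-CREPTWT mouse 2 by 0.70 for Id1, 0.68 for Id2 and 0.70 for Id3 on the log2 scale. Among all genes tested, 560 (4.44%) differed at least that much between these mice in either direction, and 297 of them were higher in mouse 1. The median difference between the Lgr5-CREPTWT mice, without its sign, was 0.13 over all genes. In the Lgr5-CREPTKO mice, mouse 2 exceeded mouse 1 by 0.45 for Id2 and 0.45 for Id3 but by 0.09 for Id1. The highest of the 4 mice was 1.62 to 1.63 times the lowest for each Id gene, and at most 1.30 times for the other 7 genes.

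Id2 and Id3 kept almost the same ratio in every mouse although both varied. Id3 was 3.37 and 3.36 times Id2 in the Lgr5-CREPTWT mice and 3.57 and 3.55 times Id2 in the Lgr5-CREPTKO mice. The ratio of Id1 to Id3 was 1.65 in both Lgr5-CREPTWT mice and 1.99 and 1.54 in the Lgr5-CREPTKO mice, so Id1 departed from the others in Lgr5-CREPTKO mouse 1. The summed FPKM of the 3 genes was 231 and 142 in the Lgr5-CREPTWT mice and 182 and 216 in the Lgr5-CREPTKO mice. In a comparison of profiles over the 4 mice, made after these values were seen, Id3 was the third nearest of 12620 other genes to Id2. Id2 was the second nearest to Id3, at a distance of 0.0803 (Euclidean, between log2 profiles centred on each gene's mean). Within a distance of 0.1, there were 3 genes around Id2 and 4 around Id3. These distances are descriptions over 4 mice.

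**Figure D2:**
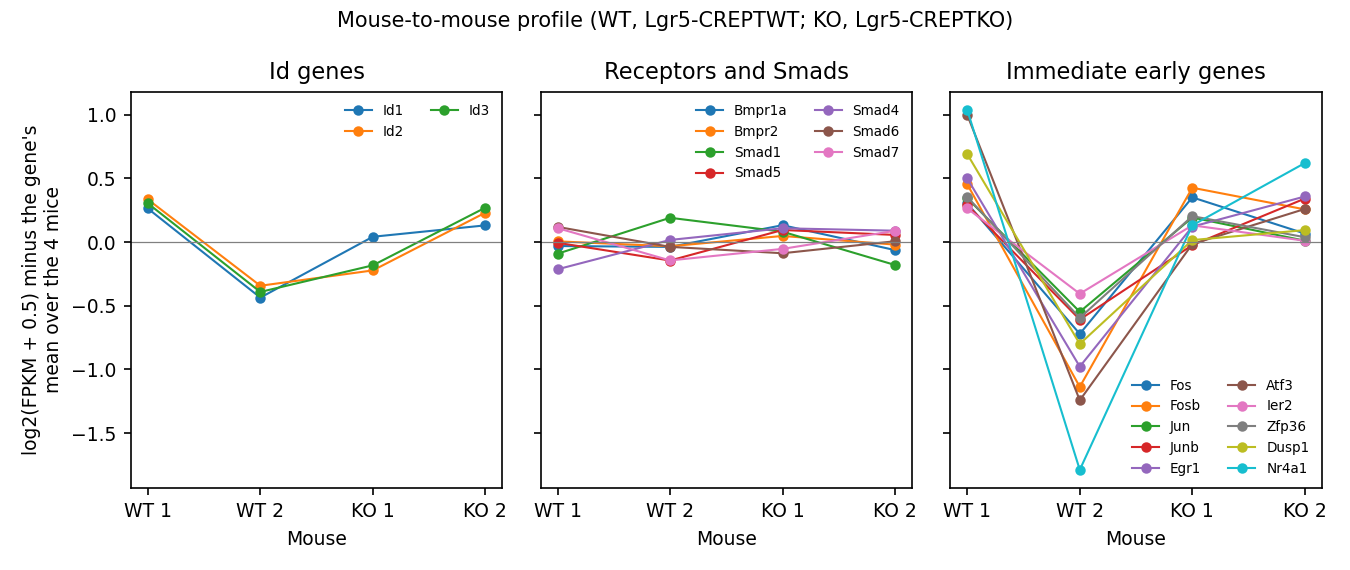
Each gene's log2(FPKM + 0.5) minus its own mean over the 4 mice, by mouse, for the Id genes (left), the receptors and Smads (middle) and 10 immediate early genes (right); lines join the points of a gene and imply no order of the mice. Id2 and Id3 run almost on top of each other, with Lgr5-CREPTWT mouse 2 lowest, and Id1 follows them except in Lgr5-CREPTKO mouse 1; all 10 immediate early genes are also lowest in Lgr5-CREPTWT mouse 2.

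Other genes differed between the same mice. Over 10 immediate early genes, a list chosen after values were seen and made of genes that cells induce within minutes of a stimulus or of handling, the sum was 3113 and 1382 FPKM in the Lgr5-CREPTWT mice and 2681 and 2566 FPKM in the Lgr5-CREPTKO mice. All 10 were higher in Lgr5-CREPTWT mouse 1 than in Lgr5-CREPTWT mouse 2, as Id1, Id2 and Id3 were. In the Lgr5-CREPTKO pair, 5 of the 10 were higher in mouse 2. None of the 10 passed the test between genotypes. Egr1, a transcription factor of this list, was 371 and 133 FPKM in the Lgr5-CREPTWT mice and 285 and 336 FPKM in the Lgr5-CREPTKO mice, the same order of mice within each genotype as for Id2 and Id3. Fos, also of this list, was 777 and 382 FPKM in the Lgr5-CREPTWT mice and 803 and 660 FPKM in the Lgr5-CREPTKO mice, with the opposite order in the Lgr5-CREPTKO pair.

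Markers of other cell types differed between the mice as well. The 4 Paneth cell markers summed to 907 and 673 FPKM in the Lgr5-CREPTWT mice and 489 and 1579 FPKM in the Lgr5-CREPTKO mice, the same order within each genotype as Id2 and Id3, and 0 of the 4 passed the test between genotypes. Lyz1 and Defa24 made up most of these sums. Mmp7 went against that order in the Lgr5-CREPTWT pair, at 36.0 and 67.0 FPKM. The 6 enterocyte markers summed to 275 and 376 FPKM in the Lgr5-CREPTWT mice and 225 and 426 FPKM in the Lgr5-CREPTKO mice, with 0 of 6 passing. The 5 goblet cell markers summed to 1124 and 1812 FPKM in the Lgr5-CREPTWT mice and 631 and 682 FPKM in the Lgr5-CREPTKO mice, with all 5 lower and 1 passing. The 5 enteroendocrine markers summed to 126 and 134 FPKM in the Lgr5-CREPTWT mice and 46.2 and 57.5 FPKM in the Lgr5-CREPTKO mice, with all 5 lower and 3 passing. The 4 tuft cell markers summed to 16.8 and 33.0 FPKM in the Lgr5-CREPTWT mice and 13.9 and 5.74 FPKM in the Lgr5-CREPTKO mice; each had both Lgr5-CREPTKO mice below, and 0 of 4 passed. The 4 erythroid markers summed to 4.10 and 3.13 FPKM in the Lgr5-CREPTWT mice and 1.08 and 0.730 FPKM in the Lgr5-CREPTKO mice, with 2 tested, both lower, and 0 passing. No marker of these lists was at 0 in all 4 mice. The part of immediate early genes and of these cell types in the values of the 10 genes and of the other pathway genes was not tested.

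The width of the intervals followed this spread. The 95% interval of the log2 fold change ran from -0.17 to 0.31 for Bmpr1a and from -0.05 to 0.45 for Smad4. It was wider for the Id genes, from -0.42 to 0.77 for Id1 and from -0.68 to 0.70 for Id2. The interval of every member lay inside a 2-fold change in either direction. Smaller differences, above all in the Id genes, were not resolved with 2 mice per genotype.

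**Figure D3:**
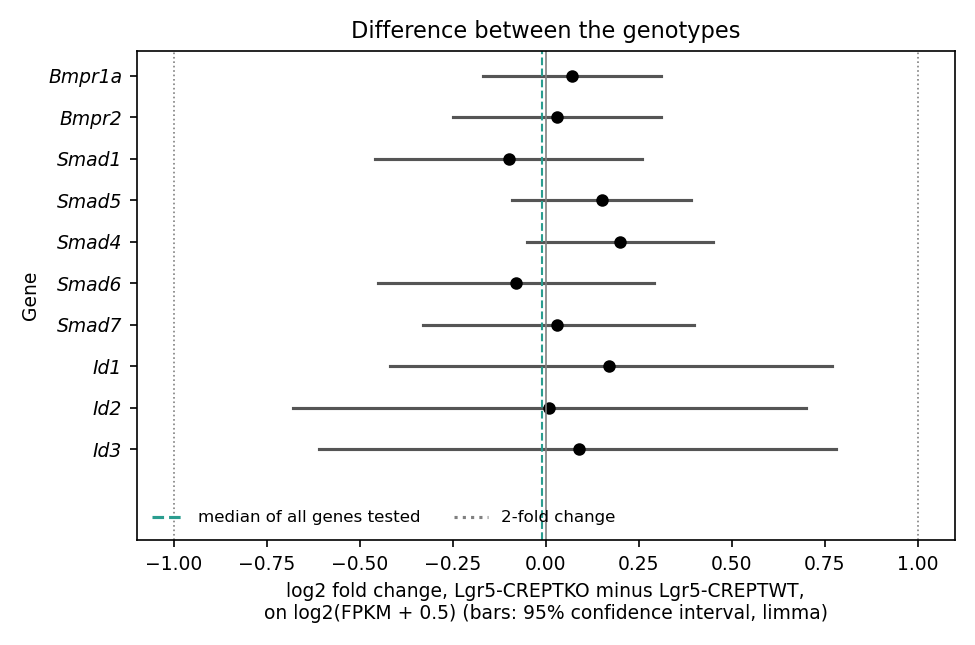
Log2 fold change of each member, Lgr5-CREPTKO minus Lgr5-CREPTWT, with its 95% confidence interval from limma (n = 2 mice per genotype). Every interval covers 0 and stays within the dotted lines of a 2-fold change, and those of Id1, Id2 and Id3 are the widest.

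A list of 78 other genes of BMP and TGF-beta signalling was read from the same fit. Of these, 69 had a row in the table and 42 passed the filter on low values. None of the 42 passed the threshold, and the smallest adjusted p was 0.0846 by limma. At an unadjusted p below 0.05 there were 8 (19.0%, against 24.5% of all genes), of which 7 were higher and 1 lower in Lgr5-CREPTKO cells. The estimate was above 0 for 33 of the 42 and below 0 for 9 (over all genes, above 0 for 6016 of 12621), with a median log2 fold change of 0.09 against -0.01 over all genes tested. Both Lgr5-CREPTKO mice lay above both Lgr5-CREPTWT mice for 17 (40.5%, against 25.6% of all genes) and below for 6 (14.3%, against 31.0%). The 4 listed crypt stem markers, given above, also had both Lgr5-CREPTKO mice above, whereas Kcne3, also given above, had both below.

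Among ligands, 3 of 13 passed the filter. Bmp3, the highest, was 11.6 and 13.3 FPKM in the Lgr5-CREPTWT mice and 16.7 and 11.9 FPKM in the Lgr5-CREPTKO mice (adjusted p = 0.594, limma), so the genotypes overlapped. Bmp7 was 8.22 and 7.65 FPKM in the Lgr5-CREPTWT mice and 12.2 and 9.25 FPKM in the Lgr5-CREPTKO mice (log2 fold change 0.40, adjusted p = 0.197, limma). Bmp2 was 1.05 and 1.18 FPKM in the Lgr5-CREPTWT mice and 0.59 and 0.66 FPKM in the Lgr5-CREPTKO mice (log2 fold change -0.52, adjusted p = 0.222, limma). The genotypes did not overlap for Bmp7 or Bmp2, with opposite signs, and neither passed. Of the secreted antagonists, 2 of 12 passed the filter, Twsg1 at 19.6 to 23.7 FPKM and Nbl1 at 0.31 to 0.81 FPKM, and in both the genotypes overlapped (adjusted p = 0.788 and 0.607, limma).

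Among other receptors and co-receptors, Rgmb was the highest. This BMP co-receptor was 88.5 and 98.4 FPKM in the Lgr5-CREPTWT mice and 116 and 114 FPKM in the Lgr5-CREPTKO mice (log2 fold change 0.30, adjusted p = 0.109, limma), which did not overlap. Acvr2b, a type II receptor, was 4.65 and 4.75 FPKM in the Lgr5-CREPTWT mice and 6.46 and 5.69 FPKM in the Lgr5-CREPTKO mice (log2 fold change 0.34, adjusted p = 0.172, limma). Bambi, a pseudoreceptor that blocks signalling, was below 1 FPKM in every mouse (adjusted p = 0.429, limma). The receptor Bmpr1a thus lay well below the co-receptor Rgmb on the FPKM scale, in every mouse.

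In the TGF-beta and activin branch, 6 of 12 genes passed the filter and all 6 estimates were above 0, from 0.05 to 0.23 on the log2 scale. Scaling every library to a common total moved the all-gene median from -0.0139 (12621 genes tested) to 0.0537 (13634 genes tested). The shift was upward and as large as the smallest of these estimates, and the medians are over different sets of genes. The part of library scaling in these estimates was not tested. Acvr1b, a type I receptor and the highest of them, was 21.6 and 24.2 FPKM in the Lgr5-CREPTWT mice and 28.0 and 22.5 FPKM in the Lgr5-CREPTKO mice, which overlapped (adjusted p = 0.587, limma). Smad3 was 13.4 and 14.3 FPKM in the Lgr5-CREPTWT mice and 16.4 and 15.6 FPKM in the Lgr5-CREPTKO mice (log2 fold change 0.20, adjusted p = 0.238, limma). Tgfbr2, the type II receptor for TGF-beta, was 7.84 and 8.03 FPKM in the Lgr5-CREPTWT mice and 9.88 and 8.88 FPKM in the Lgr5-CREPTKO mice (log2 fold change 0.23, adjusted p = 0.252, limma). Like Smad4 and Smad5, Smad3, Tgfbr2 and Smad2 (adjusted p = 0.439, limma), had both Lgr5-CREPTKO mice above both Lgr5-CREPTWT mice without passing.

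Of 23 Smad regulators and cofactors, 21 passed the filter. Ctdsp1, a phosphatase that acts on Smads, had the smallest adjusted p of the pathway list, 0.0846 by limma, and was 56.7 and 62.4 FPKM in the Lgr5-CREPTWT mice and 44.9 and 47.5 FPKM in the Lgr5-CREPTKO mice (log2 fold change -0.36). The related Ctdsp2, the highest of this role, had overlapping genotypes (log2 fold change 0.13, adjusted p = 0.514, limma). Ski, a co-repressor of Smads, was 16.4 and 15.8 FPKM in the Lgr5-CREPTWT mice and 20.7 and 19.3 FPKM in the Lgr5-CREPTKO mice (log2 fold change 0.31, adjusted p = 0.113, limma). Smad9, the remaining receptor Smad of the BMP branch, was 0.64 and 0.79 FPKM in the Lgr5-CREPTWT mice and 1.35 and 1.39 FPKM in the Lgr5-CREPTKO mice (log2 fold change 0.62, adjusted p = 0.153, limma). Smad9 thus lay far below Smad1 and Smad5 in FPKM in each mouse.

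Other BMP targets and the partners of the Id proteins were measured beside them. Of 5 other targets, 2 passed the filter, with opposite signs. Atoh8 was 6.09 and 5.54 FPKM in the Lgr5-CREPTWT mice and 7.85 and 7.20 FPKM in the Lgr5-CREPTKO mice (log2 fold change 0.35, adjusted p = 0.149, limma). Id4, the fourth Id gene, was 0.83 and 1.66 FPKM in the Lgr5-CREPTWT mice and 0.62 and 0.31 FPKM in the Lgr5-CREPTKO mice (log2 fold change -0.83, adjusted p = 0.223, limma). In Lgr5-CREPTWT mouse 2, where Id1, Id2 and Id3 were lowest, Id4 was highest. The E proteins Tcf3 (46.9 to 49.7 FPKM), Tcf12 (28.6 to 36.8 FPKM) and Tcf4 (3.50 to 3.94 FPKM) spread less over the 4 mice than Id1, Id2 and Id3, and none passed (adjusted p = 0.686, 0.301 and 0.682, limma).

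**Figure D4:**
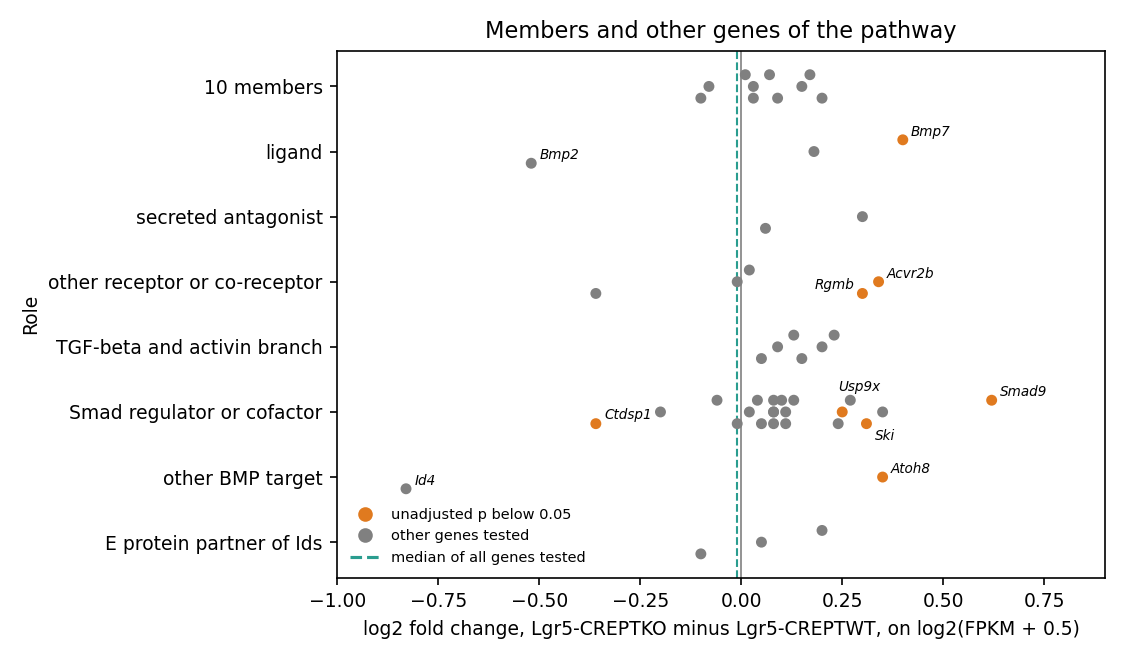
Log2 fold change, Lgr5-CREPTKO minus Lgr5-CREPTWT, of the 10 members and of the 42 other pathway genes tested, by role; each point is a gene, and orange marks an unadjusted p below 0.05, and the dashed line the median of all genes tested. All 8 orange points are outside the 10 members, 7 of them above 0, and none passed an adjusted p below 0.05.

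The profile of Smad4, the member with the smallest p, was shared by many genes. The 3 nearest over the 4 mice were Coasy at a distance of 0.0173, Zbed5 at 0.0173 and Ppp1r37 at 0.0189, and 173 genes lay within 0.1. Zbed5 was only at 0.47 to 0.73 FPKM, where the 0.5 added before the log shrinks differences. No other member was near it in this sense: the closest, Bmpr1a, ranked 2578th of the 12620 other genes.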

How the data were processed

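RNA from sorted Lgr5-GFPhigh cells of 2 Lgr5-CREPTWT and 2 Lgr5-CREPTKO mice was analysed. The authors deposited FPKM values per gene symbol and mouse, with no counts. The labels name HISAT, Bowtie2 and RSEM and build mm10, and the study's RNA-seq methods describe mapping to GRCm38.p6 transcripts, so which aligner made the table is not given in the sources used here. FPKM is relative to each library's total, and depth is unknown. FPKM were taken as log2(FPKM + 0.5), which understates changes of low genes. Genes averaging 0.5 FPKM or more (12621 of 18436) were fitted with limma 3.58.1 (lmFit, eBayes with trend, R 4.3.3), with two-sided tests and Benjamini-Hochberg adjustment over all of them, because the count model of the study's methods needs counts. The method was tested on simulated data. Members and lists were chosen with earlier results of these data known. Named were all members, Rprd1b, the highest gene and the 3 smallest p per role, and the 3 profiles nearest the member of smallest p. The likeness of Id2 and Id3, the immediate early genes, Kcne3, Slc12a2 and the ratios between members fall outside this rule and were chosen after values were seen. Coordinates and promoters are RefSeq's. Exons are GENCODE M21's.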

Additional observations from a re-analysis of the deposited data

How the results depend on the processing

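The 10 BMP genes had 0 calls under every alternative that kept all the mice. Where few or no genes of the whole table were called, as given below, this result had little or no room to differ. Over 12 alternatives the log2 fold changes of the 10 genes kept direction and side in 109 of 120 values, and the lowest adjusted p was 0.164 by limma. Changing the filter, dropping the intensity trend or adding the replicate block leaves a member's fold change the same. Under these settings its direction could not reverse. The 11 reversals all came from leaving out 1 mouse, in 7 genes: the lowest and highest values were -0.0286 and 0.17 for Bmpr1a, -0.0063 and 0.0617 for Bmpr2, -0.24 and 0.042 for Smad1, -0.0921 and 0.16 for Smad7, -0.18 and 0.52 for Id1, -0.33 and 0.35 for Id2, and -0.26 and 0.44 for Id3. Without Lgr5-CREPTWT mouse 2, Id1 was -0.18, Id2 -0.33, Id3 -0.26, Smad7 -0.0921 and Smad1 0.042. Without Lgr5-CREPTKO mouse 2, Id2 was -0.22, Id3 -0.14, Smad7 -0.04 and Smad1 0.03. Without Lgr5-CREPTKO mouse 1, Bmpr1a was -0.0286 and Bmpr2 -0.0063. A genotype left with 1 mouse is assumed to vary like the other. Smad4, Smad5 and Smad6 kept their sign.

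The other pathway genes also had 0 calls, except 1 (Ctdsp1) at an adjusted p below 0.10. The 389 calls among all genes became 1362 at that threshold, 144 with an absolute log2 fold change above 1, 202 with each library rescaled to the same total (the TPM scale), 183 with a replicate block, 4 without limma's intensity trend, and 0 with no filter on low values (smallest adjusted p 0.105). Leaving out any mouse gave from 0 to 0 calls, with fewer samples. The cause of the other changes was not tested. Rescaling to the same total moved the median log2 fold change over all tested genes from -0.0139 to 0.0537. On that scale 13634 genes passed the filter instead of 12621, so these medians are over different sets of genes. No pairing of the mice by replicate number is stated, and the main fit used none. Same-numbered mice are different animals, and their deviations correlated at -0.0266 across 12621 genes. Whether they shared a litter, a day of sorting or a batch is not given. Without separate read counts, the counting error of single values could not be given.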
